A study of Mus musculus with 48 samples.

Results

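Among 18 arrays from mice that carry a Notch allele on the pL2 background, 5 had much higher signal for genes of the intestinal lining than the other 13. They were chosen by those genes: the mean log2 signal of 19 intestinal genes had to exceed 8, and the whole series holds 48 arrays. The 19 genes were Cdx1, Cdx2, Vil1, Fabp1, Fabp2, Apoa1, Apoa4, Alpi, Lgals4, Krt20, Cdh17, Isx, Reg3b, Reg3g, Reg4, Sis, Gpa33, Heph and Anpep, each read on its brightest single-symbol probe set. Every array held RNA of whole tissue from the junction of squamous oesophagus and stomach, called SCJ/cardia in the labels. Because measured values chose the 5 arrays, every comparison of their gene signals with the other 13 is a description and carries no test. Only sample labels were compared with tests.

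All 18 arrays shared the pL2 transgene, which drives the inflammatory cytokine IL-1beta in squamous cells of the oesophagus and forestomach, chow diet, the MRI facility and a tamoxifen treatment. The lines differed in driver and allele. The Dclk lines name Dclk1, a gene of tuft cells, and the Lgr5 lines name Lgr5, a gene of intestinal stem cells. The study's design text places the Notch changes in Dclk1-positive and Lgr5-positive cells. The share of these cells in the whole tissue read here was not measured and may be small. The alleles were Notch2IC_LacZ, an activated Notch2, and the floxed alleles Notch1fl_fl and Notch2fl_fl, each on 3 arrays per driver. On the Notch lines, age at the endpoint was 9 to 13 months and age at tamoxifen 3 to 6 months. The pL2 mice without a Notch allele (pL2_MRI_chow, n = 3) were 12 months old and have no tamoxifen age in their labels, so tamoxifen and the Notch alleles cannot be told apart against them. Array titles differ too, with the letters TH on all Notch-line arrays and AN on these 3. The labels do not explain the letters, and what goes with them cannot be told apart either. The 30 arrays outside the Notch lines came from wild-type (WT), pL2, pL2_IL8, FXR and pL2_FXR mice of 9 or 12 months. Groups with Freising in their name were WT or pL2 mice at Freising on chow or high-fat diet (HFD).

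The small intestine is lined by enterocytes, which digest and take up nutrients at a brush border, goblet cells, which secrete mucus, and Paneth cells, which secrete antimicrobial peptides at the crypt base. In Barrett's oesophagus, glandular lining with intestinal features replaces squamous lining near the stomach. Cdx1 and Cdx2 are transcription factors that set intestinal identity, and their appearance in the oesophagus or stomach marks intestinal metaplasia. The duodenum lies next to the stomach and expresses Pdx1 and the enterokinase gene Tmprss15, so genes that differ along the gut bear on which segment a profile resembles.

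The 5 high arrays were 1 array in each of 5 of the 6 lines. The mean of the 19 genes was 9.46 on pL2_Lgr5_Notch1fl replicate 3, 9.48 on pL2_Lgr5_Notch2fl replicate 2, 9.71 on pL2_Lgr5_Notch2IC replicate 3, 8.65 on pL2_Dclk_Notch1fl replicate 2 and 8.44 on pL2_Dclk_Notch2fl replicate 1. Values of the high arrays are listed below in this order. The other 13 Notch-line arrays ranged between 5.82 and 7.22 with a median of 6.50, and the other 30 arrays of the series between 5.45 and 7.01 with a median of 6.18. No array of the pL2_Dclk_Notch2IC line was above 8. The lowest arrays above the threshold had 8.44 and 8.65, and the highest below it had 7.22 (pL2_Lgr5_Notch2fl replicate 3) and 7.08 (pL2_Lgr5_Notch1fl replicate 1).

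**Figure D1:**
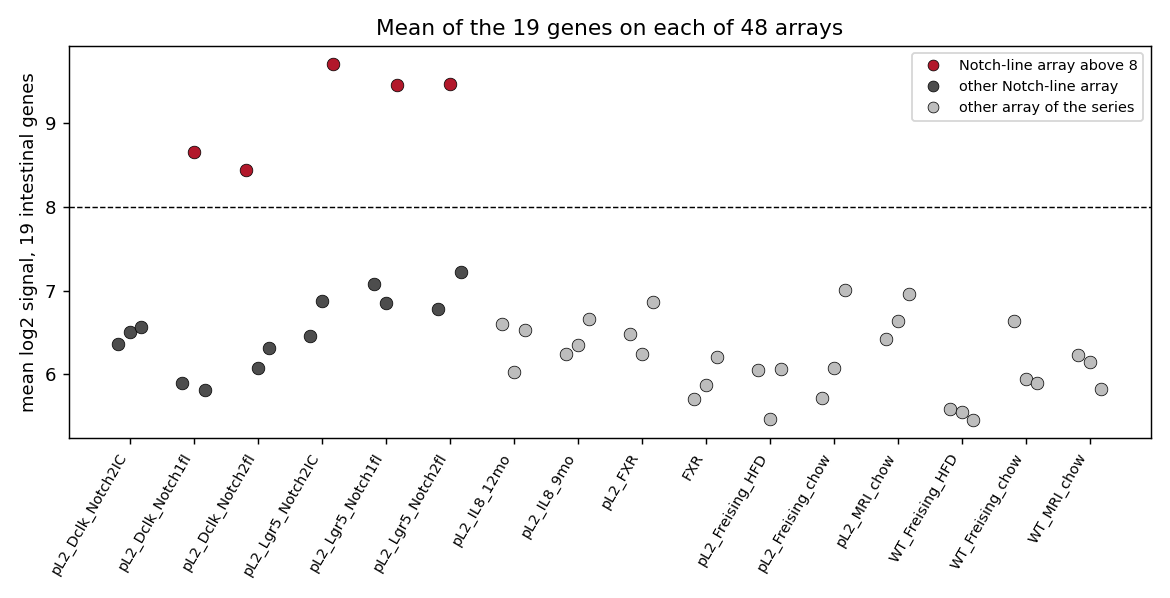
Mean log2 signal of the 19 genes (vertical axis) on each of 48 arrays, by group, with 1 point per array and a dashed line at 8. The 5 high arrays lie between 8.44 and 9.71, and all other Notch-line arrays lie at or below 7.22.

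No label test separated the high arrays from the others. The Lgr5 driver was on 3 of 5 high arrays and on 6 of 13 others (Fisher's exact test, two-sided, p = 1.0). Activated Notch2 was on 1 of 5 high arrays and on 5 of 13 others (exact p = 0.615). Age at the endpoint was 10.8 ± 1.3 months on the high arrays and 11.0 ± 0.91 months on the others (SD, n = 5 and 13, exact permutation p = 0.914, two-sided). Tamoxifen preceded the endpoint by 6 months on all 5 high arrays, and by 6.23 ± 0.60 months on the others (SD, n = 13, exact permutation p = 0.734). A suffix at the end of the array title was on none of the 5 high arrays and on 4 of 13 others (exact p = 0.278). All 6 label tests, age at tamoxifen included, had an adjusted p of 1.0 (Fisher's exact or exact permutation tests). With 5 arrays these tests cannot show that the labels are balanced. Both sexes were present, since Xist, transcribed from the inactive X chromosome, had 3.53, 11.93, 5.22, 11.30 and 10.99 on the high arrays. Among the other 13, pL2_Lgr5_Notch1fl replicate 2 had Xist at 10.75 and the Y-chromosome genes Eif2s3y, Kdm5d and Uty at 7.56, 6.42 and 6.93. The mean of these 4 genes was 7.91 there and 8.05 on pL2_Dclk_Notch1fl replicate 3. Whether these arrays held RNA of more than 1 mouse was not tested.

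Array medians ran between 4.03 and 4.27 over the 48 arrays, and arrays of a group correlated at 0.918 to 0.989. Among the other 13, pL2_Lgr5_Notch1fl replicate 2 stood apart through liver genes: the mean of 14 hepatocyte genes was 11.43 there, and 4.05 to 4.44 on the high arrays. Without it, 14 of the 19 genes that chose the arrays did not overlap, against 11 with it, but the rule built that separation in. Of all genes tested, 1.8% were higher on every high array without it and 1.26% with it. The Notch targets themselves are only a weak check of the labels, since Notch1 and Notch2 are expressed by most cells of the tissue and a probe set can lie outside a deleted part. Notch1 was lower by 0.21 ± 0.16 (log2, SE) in the floxed Notch1 than in the floxed Notch2 lines (limma adjusted p = 0.698). In the same comparison Notch2 was lower too, by 0.23 ± 0.15 (limma adjusted p = 0.671). Notch2 was higher by 0.06 ± 0.15 in the activated than in the floxed Notch2 lines (adjusted p = 0.997).

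Of 15242 genes tested, 192 were higher on every high array than on any of the other 13, which is 1.26% of genes, and 6 were lower, which is 0.0394%. The median difference over all genes was 0.0. The 192 include 11 of the 19 genes that chose the arrays, 36 genes of other lists and 145 genes on no list, and 68 of them differed by more than 3 on the log2 scale. Without the liver-gene array 275 genes were higher on every high array, 1.8% of genes. Whole tissue gives 1 value per gene, so more cells of a type and more RNA per cell cannot be told apart. The lists were drawn up with earlier results of these data known, and their counts are read as description only. Tested genes needed signal above the array median on at least 3 arrays, so a gene could pass through the high arrays alone. Genes too low to pass are not counted.

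Sucrase-isomaltase, Sis, which splits sugars at the brush border, had the largest difference of all and is one of the genes that chose the arrays. It had 10.44, 10.83, 10.86, 9.99 and 9.45 on the high arrays, against 2.46 to 7.69 with a median of 2.97 on the other 13. Lactase, Lct, splits milk sugar and was not among them. Lct had 10.15, 10.26, 11.13, 9.53 and 8.04 on the high arrays, against 2.95 to 6.99 with a median of 3.6 on the others. Guca2b, which encodes the peptide uroguanylin, had 11.16, 11.73, 11.75, 10.77 and 10.35 on the high arrays, against 4.29 to 9.63 with a median of 4.79. On each of these 3 genes every high array was above every other Notch-line array, and the highest of the others was pL2_Lgr5_Notch2fl replicate 3, the array just below the threshold.

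The promoters of Sis and Lct are shown because Cdx factors are known to act on both genes. RefSeq (GRCm38.p6) places them at chr3:72967814-72968113 for Sis and chr1:128328269-128328568 for Lct, both on the minus strand, running from 250 bases before to 50 after the start. Capitals mark every match, on either strand, to CAATAAA or CATAAA, letters like those of Cdx sites. Neither motif contains the other.
Sis: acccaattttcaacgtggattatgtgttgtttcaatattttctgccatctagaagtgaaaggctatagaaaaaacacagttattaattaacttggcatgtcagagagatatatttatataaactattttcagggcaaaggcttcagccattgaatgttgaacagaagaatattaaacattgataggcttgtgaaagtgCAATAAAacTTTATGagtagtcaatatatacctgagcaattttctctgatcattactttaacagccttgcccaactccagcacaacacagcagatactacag
Lct: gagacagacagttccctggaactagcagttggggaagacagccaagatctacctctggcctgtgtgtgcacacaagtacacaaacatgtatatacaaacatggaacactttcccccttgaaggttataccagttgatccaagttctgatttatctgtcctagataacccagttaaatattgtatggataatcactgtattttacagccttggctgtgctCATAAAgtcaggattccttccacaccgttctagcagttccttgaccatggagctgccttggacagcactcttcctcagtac

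The Sis window holds both motifs once each, and the Lct window holds CATAAA once. CAATAAA is in 4.84% of 26994 promoters of the same length, with 1 promoter per gene, and CATAAA is in 12.2%. Of the 192 genes, 175 were not among the genes that chose the arrays and have a gene name that is not predicted or clone-based. Of those 175, 140 have a promoter among the 26994, and Sis, which helped choose the arrays, is not counted. CAATAAA is in 7 of these 140 and CATAAA in 21. A match is a run of letters in the window and shows no binding.

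Brush-border genes gave the highest count of any list. Of 24 measured genes for digestion and uptake at the brush border, 17 were higher on every high array than on any other Notch-line array. The share over all genes was 1.26%. With the liver-gene array left out the count was 20, and the share over all genes was 1.8%. The list mean was 8.89, 9.02, 9.43, 7.94 and 7.79 on the high arrays, against 4.77 to 6.53 with a median of 4.99. The median gene of the list differed by 3.87, against 0.0 over all genes tested. Naaladl1, a brush-border peptidase, had 10.50, 10.75, 10.83, 7.80 and 9.18 on the high arrays, against 2.79 to 7.74 with a median of 3.44. Mep1b, a subunit of the protease meprin, differed by 5.05, Enpep, an aminopeptidase, by 4.47, and Cdhr5, a cadherin that links microvilli, by 4.44. The peptide transporter Slc15a1 differed by 2.55 and the sodium-glucose transporter Slc5a1 by 1.37, and their medians on the other 13 were 8.55 and 8.78. Slc5a1 overlapped between the groups. The glucose transporter Slc2a2 also overlapped, through the liver-gene array at 9.16.

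Lipid genes overlapped mostly through that same array. Of 15 genes for enterocyte lipid handling, 3 were higher on every high array (1.26% of all genes), and 10 were without the liver-gene array (1.8% of all genes). The cholesterol transporter Npc1l1 had 10.85, 10.97, 11.62, 9.13 and 8.85 on the high arrays, against 4.52 to 8.10 with a median of 5.90. Mttp, which loads fat onto lipoproteins, had 9.90, 10.03, 10.39, 9.24 and 8.32 on the high arrays, against 4.44 to 9.28 with a median of 4.79. The highest of the others for Mttp was the liver-gene array. Cd36 and Scarb1, also in the list, differed by 0.44 and -0.20, so not every gene of the list was higher.

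Goblet genes split. Muc2, the main gel-forming mucin of the intestine, had 11.38, 11.55, 11.48, 8.96 and 9.99 on the high arrays, against 4.29 to 8.18 with a median of 5.04. Zg16, a lectin of intestinal mucus, had 10.74, 10.97, 10.02, 8.05 and 9.13 on the high arrays, against 2.28 to 7.21. Tff3, a peptide secreted with mucus, differed by 3.20, and Atoh1, the factor that directs secretory cell fate, by 1.64. These 4 of 10 did not overlap, against 1.26% of all genes. Agr2 and Spdef, which gastric mucous cells also express, differed by -0.08 and 0.16. Muc2 was also clearly present on pL2_Lgr5_Notch1fl replicate 1, just below the threshold, where it had 8.18.

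Paneth genes divided the high arrays themselves. Of 9 measured, Defa24, Ang4 and Itln1 were higher on every high array, against 1.26% of all genes. Defa24, an alpha-defensin, had 10.63, 11.16, 10.68, 7.6 and 9.00 on the high arrays, against 3.02 to 7.07 with a median of 3.54. Defa21 had 10.30, 10.84, 5.26, 4.55 and 8.39 on the high arrays, against 2.58 to 7.94. Defa22 had 11.48, 11.97, 4.99, 6.34 and 9.59 on the high arrays, against 3.57 to 9.30. On pL2_Lgr5_Notch2IC replicate 3, Defa24 was therefore as high as on the other Lgr5 high arrays, while Defa21 and Defa22 were more than 5 lower on the log2 scale. Ang4, an antimicrobial ribonuclease, was highest on that array, with 8.39, 8.96, 10.70, 6.22 and 6.99 on the high arrays, against 2.08 to 4.87. Alpha-defensins are near-identical copies, so a probe set may read more than 1 of them. Lysozyme, Lyz1, overlapped, with 11.52, 11.55, 11.86, 7.81 and 8.70 on the high arrays, against 4.38 to 9.35.

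**Figure D2:**
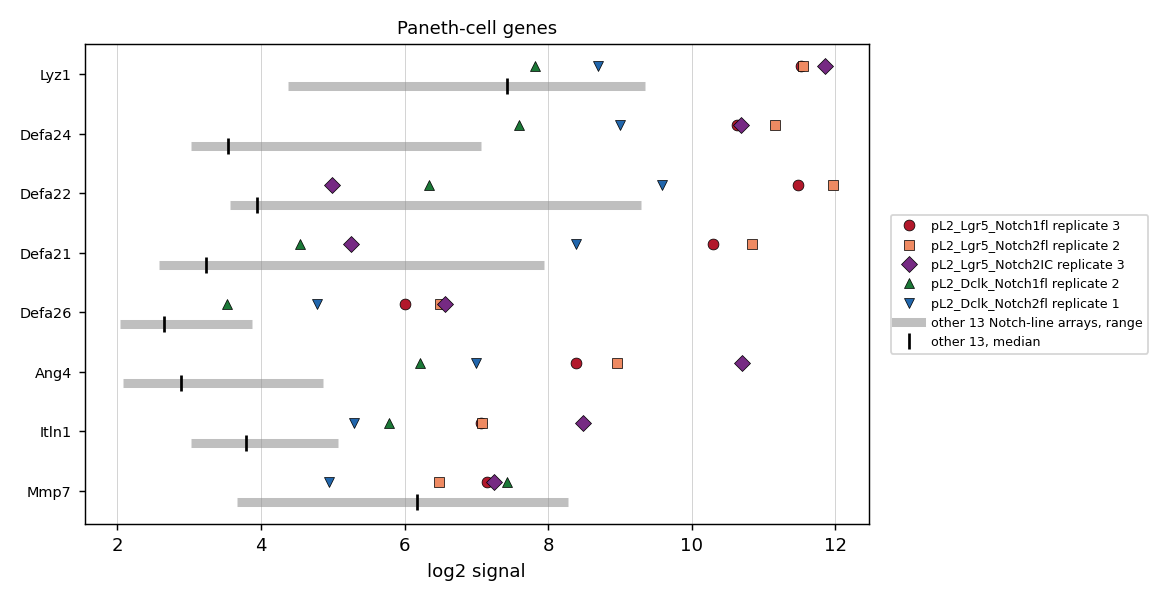
Log2 signal of 8 Paneth-cell genes on the 5 high arrays (coloured symbols, above) and the range and median of the other 13 Notch-line arrays (grey bar and black tick, below). Defa24 is high on all 3 Lgr5 high arrays, whereas Defa21 and Defa22 are at 5.26 and 4.99 on pL2_Lgr5_Notch2IC replicate 3.

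The question of which gut segment the profile resembles was addressed with genes that differ along the intestine. Of 11 tested genes used as duodenal or proximal, none was higher on every high array, a count near the share of 1.26% over all genes. By their means, 8 of the 11 were higher on the high arrays, and the list mean differed by 0.31. Without the liver-gene array 1 was, Slc46a1, against 1.8% of all genes. Pdx1 had 4.93, 5.04, 4.19, 4.64 and 3.89 on the high arrays, against 3.86 to 5.76 with a median of 4.70. Tmprss15, made by duodenal enterocytes, had 2.83, 3.02, 2.74, 3.37 and 2.85 on the high arrays, against 2.58 to 3.28, and was too low to pass the filter. Onecut2, a duodenal factor, had 5.05 to 6.20 on the high arrays, against 4.39 to 7.57. Gip, the hormone of proximal K cells, had 5.55, 5.79, 6.14, 5.35 and 4.96 on the high arrays, against 3.88 to 5.17, and overlapped only through pL2_Dclk_Notch2fl replicate 1. Sct, the secretin gene, had 3.88 to 4.93 on the high arrays, against 3.42 to 4.20.

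Duodenal iron and calcium genes varied by array. S100g, a calcium-binding protein of duodenal enterocytes, had 6.03 on pL2_Dclk_Notch1fl replicate 2 and 3.03 to 3.62 on the other 4 high arrays, against 2.63 to 4.99 on the others. On the same array the iron exporter Slc40a1 had 7.49, against 5.34 to 6.57 on the other 4. The folate transporter Slc46a1 had 6.70 to 8.16 on the high arrays, against 5.79 to 7.73 on the others. The proximal list mean was 5.22, 5.22, 5.49, 5.81 and 5.23 on the high arrays, against 4.71 to 5.34, so pL2_Lgr5_Notch2IC replicate 3 and pL2_Dclk_Notch1fl replicate 2 alone were above all others.

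Of 7 genes used as ileal or distal, 4 were higher on every high array, against 1.26% of all genes. Cubn, the receptor for vitamin B12 with intrinsic factor, had 8.20, 9.56, 8.53, 6.82 and 7.14 on the high arrays, against 2.28 to 6.48 with a median of 2.61. Its partner Amn differed by 2.20, and its lowest high array and highest other array both rounded to 4.46. Slc51a, a subunit of the basolateral bile acid exporter, had 6.78, 6.87, 6.78, 5.44 and 6.25 on the high arrays, against 2.80 to 4.62. Nts, the neurotensin gene, differed by 1.59. The genes that handle bile acids inside ileal cells overlapped. Fabp6 had 3.12, 3.99, 3.32, 4.59 and 6.24 on the high arrays, against 3.01 to 6.51, and Slc10a2 had 2.88 to 5.04, against 3.22 to 5.18. Fabp6 was highest among the others on pL2_Lgr5_Notch1fl replicate 1, and Slc10a2 and Fabp6 were highest of the 5 high arrays on pL2_Dclk_Notch2fl replicate 1.

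Colonic genes were low or shared with the small intestine. Car1 had 2.57 to 3.36 on the high arrays, against 2.59 to 4.43, and Hoxb13, a hindgut factor, had 3.02 to 3.20, against 2.93 to 3.32. Slc26a3, a chloride exchanger of colon and small intestine, had 7.06, 7.52, 7.96, 6.71 and 5.94 on the high arrays, against 2.79 to 4.82, and Car4 differed by 2.50. Neither a duodenal sample nor a dissected metaplasia of known position was analysed here, so intestinal metaplasia and included intestinal tissue cannot be told apart from these values.

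**Figure D3:**
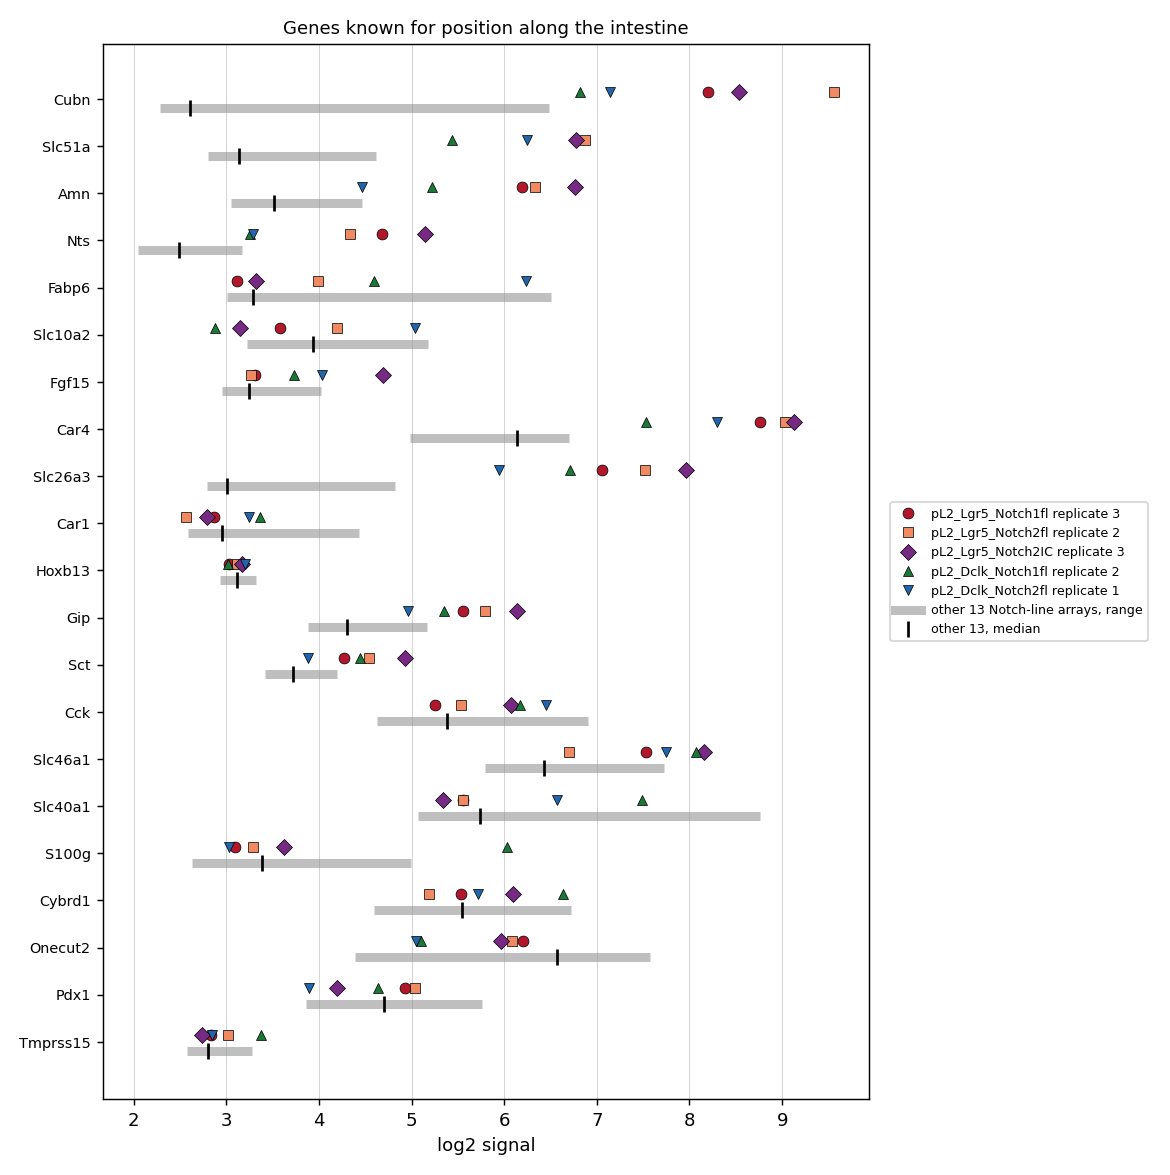
Log2 signal of genes known for their position along the intestine, for the 5 high arrays (coloured symbols, above) and the range and median of the other 13 (grey bar and black tick, below). Cubn, Slc51a, Amn, Nts, Car4 and Slc26a3 do not overlap, whereas Pdx1, Tmprss15, Car1 and Hoxb13 do.

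Of the factors that set intestinal identity, the markers Cdx1 and Cdx2 were detected at modest signal. Cdx2 had 5.52, 6.04, 6.85, 4.63 and 4.52 on the high arrays, against 2.58 to 3.94 with a median of 3.27. Of 12 other intestinal factors 1 was higher on every high array, against 1.26% of all genes. Without the liver-gene array 2 were, Hnf4g and Nr1i3, against 1.8% of all genes. Hnf4g had 8.74, 9.18, 9.34, 7.61 and 7.10 on the high arrays, against 4.38 to 5.91. Its relative Hnf4a had 8.40 to 9.68 on the high arrays, against 7.70 to 9.01. Gata4, absent from the ileum and present in proximal gut and stomach, had 7.6 to 8.83 on the high arrays, against 7.23 to 8.80. None of 9 crypt stem genes separated the groups, a count near the share over all genes (1.26% higher and 0.0394% lower). Lgr5 had 5.05 to 6.04 on the high arrays, against 3.96 to 7.01, and Olfm4 had 6.67 to 10.30, against 6.68 to 9.98.

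Of 9 tested genes of the lymphocytes that sit within the intestinal lining, 2, Cd7 and Cd8a, were higher on every high array. The share over all genes was 1.26%. The list mean was 4.63, 4.68, 5.03, 5.27 and 4.83 on the high arrays, against 3.92 to 4.44 on the other 13, and it reached 5.40 on pL2_Freising_HFD replicate 2, above all of the high arrays. Cd7, a receptor of intraepithelial T cells, had 5.63, 5.18, 6.01, 6.55 and 6.03 on the high arrays, against 3.42 to 4.72, and Cd8a differed by 1.22. Cd3g overlapped and differed by -0.10. None of 7 tested plasma-cell and B-cell genes separated the groups, a count near the share over all genes (1.26% higher and 0.0394% lower). Cd79b had 5.22, 6.87, 4.78, 8.19 and 4.69 on the high arrays, against 4.50 to 5.58, and Jchain differed by -0.61. The part of other cells in these values was not tested.

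Gastric and squamous genes remained present on the high arrays. The gastric pit gene Gkn2 had 13.22, 13.14, 12.72, 13.08 and 13.11 on the high arrays, against 12.95 to 13.26 on the other 13. None of 8 gastric pit, 8 parietal or 16 squamous suprabasal genes separated the groups. Over all genes 1.26% were higher and 0.0394% lower on every high array, so these counts are near the share over all genes. The pit list mean was 11.83, 11.78, 10.34, 11.54 and 11.47 on the high arrays, against 10.87 to 11.86, and the parietal list mean was 8.96, 8.84, 7.61, 8.94 and 8.99, against 7.81 to 9.38. Both were lowest on pL2_Lgr5_Notch2IC replicate 3, the array with the highest intestinal mean. The suprabasal squamous list was lowest on pL2_Lgr5_Notch1fl replicate 3 at 7.68, against 8.15 to 10.68 on the others, and reached 10.63 to 10.73 on 3 of the high arrays. The Alb signal was 4.63 to 6.50 on the high arrays, and Cpa1, a pancreatic enzyme, had 3.58 to 3.91 on the high arrays, against 3.42 to 4.08.

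**Figure D4:**
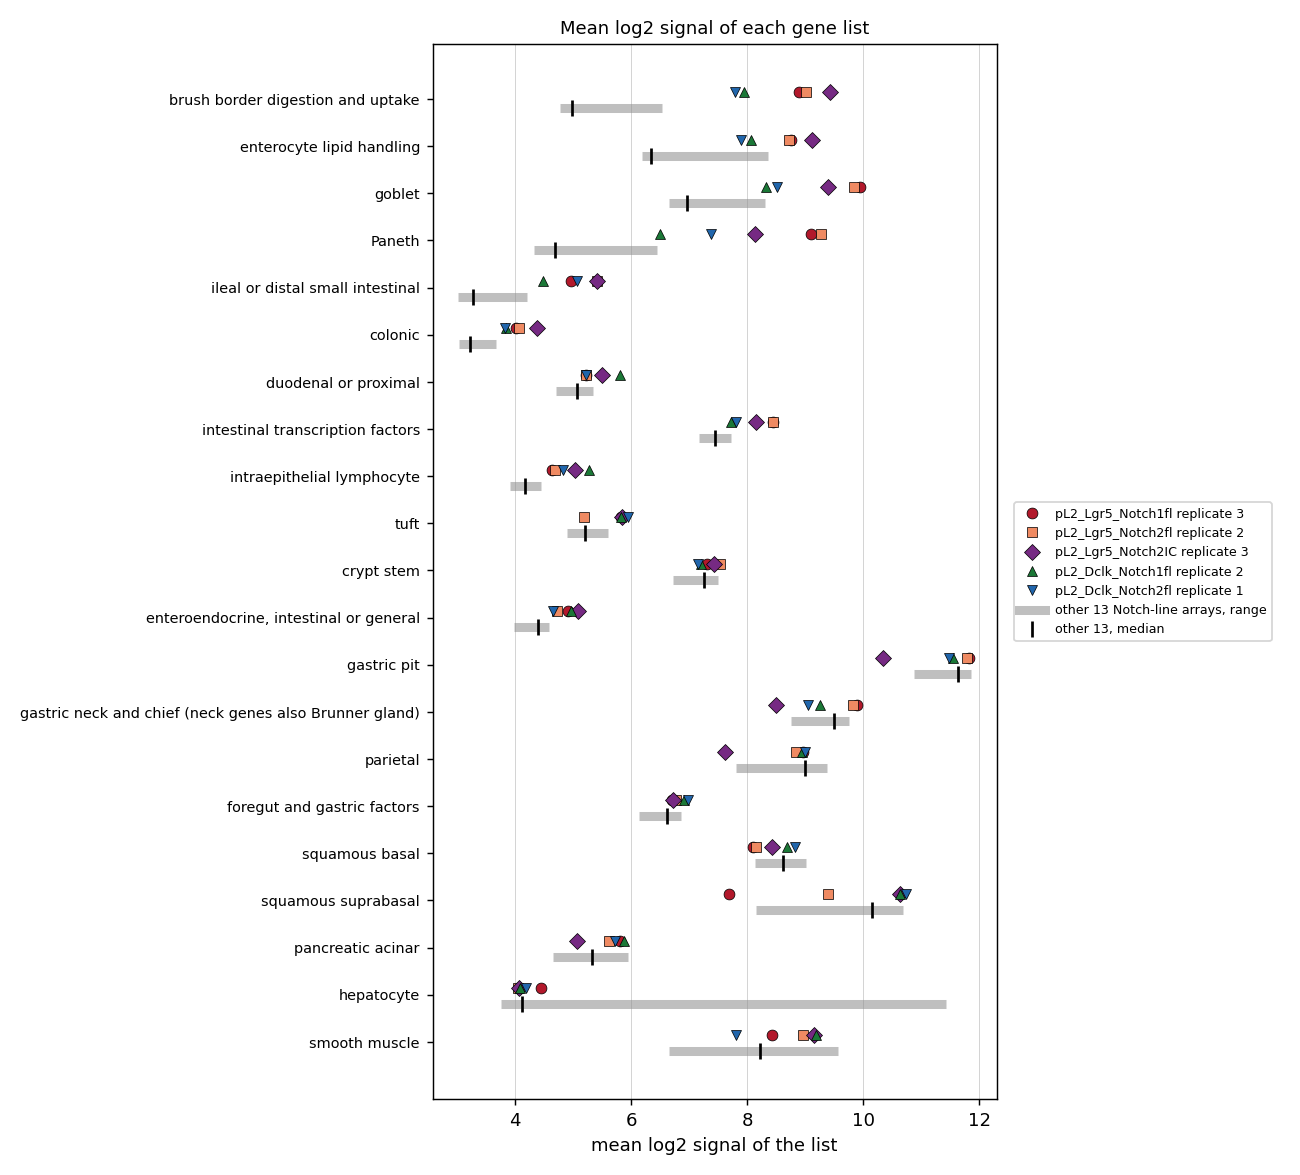
Mean log2 signal of 21 gene lists on the 5 high arrays (coloured symbols, above) and the range and median of the other 13 Notch-line arrays (grey bar and black tick, below). Enterocyte, goblet and Paneth lists lie to the right of the grey bars, except lipid handling, which the liver-gene array extends to 8.36, and the gastric pit, parietal and suprabasal squamous lists overlap them.

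Of the genes on no list, Clca4b, of a family of secreted metalloproteases, had the largest difference. It had 10.54, 10.92, 10.61, 9.23 and 9.00 on the high arrays, against 1.84 to 8.49 with a median of 2.78. Clec2h, a lectin-like surface protein, differed by 6.10, the mucin Muc3 by 5.68, the sphingomyelinase Enpp7 by 5.68, the histamine-degrading enzyme Aoc1 by 5.64, and the lactate transporter Slc5a12 by 5.13. The 5 named genes that were lower on every high array were Snora15 (-1.59), Snora21 (-1.02), Mib1 (-0.28), COX3 (-0.26) and Pum2 (-0.19). Mib1 is a ubiquitin ligase needed to send Notch signals. It had 7.24, 7.33, 6.95, 7.29 and 7.40 on the high arrays, against 7.40 to 7.83, so the groups met at 7.40 after rounding.

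The high arrays were also compared by their excess over the mean of the other 13, across 80 intestinal genes that did not choose them. Pearson's r of this excess was 0.782 to 0.982 over the 10 pairs of arrays, with a median of 0.858. It is a description, since genes are no replicates and all pairs share the subtracted mean. The highest value was between pL2_Lgr5_Notch1fl replicate 3 and pL2_Lgr5_Notch2fl replicate 2. The 2 Dclk high arrays correlated with each other at 0.782. Their signal was lower than on the Lgr5 high arrays, with a median difference of 0.74 for pL2_Lgr5_Notch1fl replicate 3 minus pL2_Dclk_Notch1fl replicate 2 and of 1.20 for pL2_Lgr5_Notch2IC replicate 3 minus pL2_Dclk_Notch2fl replicate 1.

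The labelled comparisons show what the 5 arrays do to the study's groups. Within lines, the median SD of brush-border genes was 2.13 with the high arrays and 0.706 without them, against 0.289 and 0.261 over all genes. For the Dclk lines set against the Lgr5 lines, limma called 119 genes higher (0.781%) and 25 lower (0.164%) at an adjusted p below 0.05 with all 48 arrays. None of the 24 brush-border genes was called, and 14 of them had an unadjusted p below 0.05, all lower in the Dclk lines, as had 2341 of all 15242 genes in either direction. Lct was lower by 1.80 ± 0.89 in the Dclk lines (log2, SE, adjusted p = 0.326) and Muc2 by 1.81 ± 0.82 (adjusted p = 0.274). The labels do not say whether arrays of a line came from separate mice, so these p-values measure the spread between arrays.

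Without the 5 arrays, limma called 37 genes higher (0.243%) and 27 lower (0.177%) in the Dclk lines than in the Lgr5 lines, and 29 of these 64 were among the 144 called with all arrays. Among the genes then called were the enterocyte genes Mgam, Mme, Mttp and Cdhr5 and the duodenal factor Onecut2, all lower in the Dclk lines. The arrays were left out by their intestinal signal, so the adjusted p of an intestinal gene without them is not independent of that choice. Fabp2, a fatty acid carrier of enterocytes, had 4.26 to 5.62 with a median of 5.03 on the remaining 7 Dclk arrays, against 5.73 to 9.48 with a median of 6.47 on the remaining 6 Lgr5 arrays. Fabp2 is one of the 19 genes, so leaving out the high arrays removed its own highest values, and its difference of -2.25 ± 0.41 (log2, SE) is given with no test. With all arrays its adjusted p was 0.104 (limma).

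Mgam, which digests starch at the brush border, was not one of the 19, but it was higher on every high array. Leaving out the high arrays therefore removed its highest values too. The adjusted p values of Mgam and of the other intestinal genes below are not independent of that choice and are given as description. Mgam had 4.65 to 6.32 on the remaining Dclk arrays, against 6.99 to 8.58 on the remaining Lgr5 arrays. Its difference was -2.16 ± 0.45 (limma adjusted p = 0.0341), and with the liver-gene array left out as well the adjusted p was 0.069. Without both kinds of array the limma adjusted p was 0.103 for the peptidase Mme, 0.102 for Mttp and 0.122 for Cdhr5. Naaladl1 (-2.27 ± 0.39, adjusted p = 0.00613), Guca2b (-2.20 ± 0.38, 0.00613), Muc2 (-1.62 ± 0.34, 0.0268), Zg16 (-2.73 ± 0.57, 0.0268), Defa24 (-1.86 ± 0.37, 0.021) and Slc51a (-0.85 ± 0.17, 0.021) were called there and not with all arrays. Leaving out arrays with a 19-gene mean above 7 instead removes both arrays just below the threshold, which belong to the Lgr5 lines. That choice leaves the liver-gene array as the sole pL2_Lgr5_Notch1fl array and a single pL2_Lgr5_Notch2fl array, so only differences are given. Those of the last 6 genes, in the same order, were -0.38, -0.61, 0.12, -1.31, -0.36 and -0.26. Mgam, Mme, Mttp and Cdhr5 then differed by -2.19, -1.81, -1.92 and -1.35, against -2.16, -1.77, -1.53 and -1.33 without the 5 arrays.

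**Figure D5:**
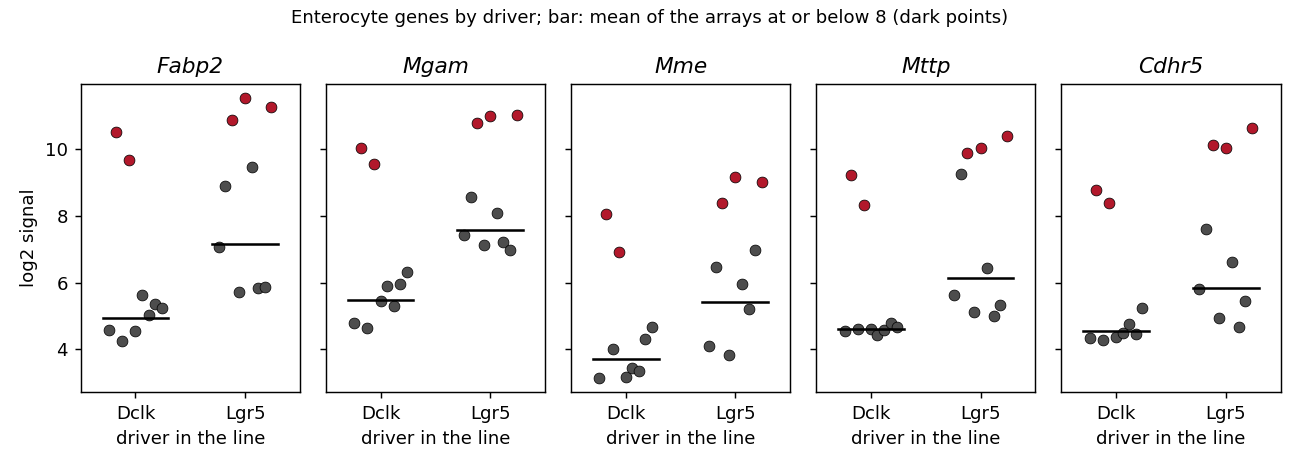
Log2 signal of Fabp2, Mgam, Mme, Mttp and Cdhr5 on the 18 Notch-line arrays, Dclk lines left and Lgr5 lines right in each panel, with the 5 high arrays in red and a bar at the mean of the dark points. The remaining Dclk arrays lie below the remaining Lgr5 arrays for Fabp2 (at most 5.62 against at least 5.73) and for Mgam (at most 6.32 against at least 6.99).

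With all arrays, 8 genes of the lists were called between the Dclk and the Lgr5 lines. Onecut2 was lower in the Dclk lines by 1.06 ± 0.26 (limma adjusted p = 0.0416). It was called without the 5 arrays (adjusted p = 0.0341), and not with the liver-gene array left out too (0.0574). Fcgbp, a protein of goblet-cell mucus, was lower by 1.74 ± 0.45 (adjusted p = 0.0488), with an adjusted p of 0.0852 without the 5 arrays. The pancreatic enzyme genes Try4, Pnliprp1 and Rnase1 were higher by 1.71 ± 0.33, 1.71 ± 0.42 and 0.59 ± 0.14 (limma adjusted p = 0.0109, 0.0425 and 0.037), and Flg, of the cornified layer, by 2.62 ± 0.66 (adjusted p = 0.0456). Without the 5 arrays the adjusted p was 0.0421 for Try4, 0.12 for Pnliprp1, 0.0752 for Rnase1 and 0.0778 for Flg. Ghrl, the ghrelin gene of gastric endocrine cells, rose by 1.07 ± 0.27 (adjusted p = 0.0449), and Sst, the somatostatin gene, by 1.5 ± 0.37 (adjusted p = 0.0453). Both stayed called without the 5 arrays (adjusted p = 0.0341 each), and neither did with the liver-gene array left out too (0.0844 and 0.105). Leaving out each of the 18 Notch-line arrays in turn ended the call of Try4 in 0 cases and of the other 7 genes in 7 to 14 cases (limma adjusted p up to 0.179). With the compared groups alone none of the 8 was called (limma adjusted p = 0.126 to 0.368).

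For activated against floxed Notch2, limma called 8 genes higher (0.0525%) and 4 lower (0.0262%) with all arrays, and 49 higher (0.321%) and 35 lower (0.23%) without the 5. All 12 were among these 84. Hey1, a direct Notch target, had 4.62 to 7.0 with a median of 6.14 in the activated lines, against 4.57 to 5.43 with a median of 4.90 in the floxed lines. It rose by 1.11 ± 0.23 (limma adjusted p = 0.0437), and by 1.32 ± 0.27 without the 5 arrays (adjusted p = 0.0256). The call was lost without arrays above 7 (1.19 ± 0.31, limma adjusted p = 0.212), with the compared groups alone (0.992) and in 9 of 12 fits that left out 1 array (0.0614 to 0.26). The cornified-layer genes Flg, Krt1 and Lor were called only without them, lower by 3.28 ± 0.72, 2.67 ± 0.60 and 2.79 ± 0.65 in the activated lines (limma adjusted p = 0.0348, 0.0374 and 0.0417). Without arrays above 7 instead, their adjusted p was 0.205, 0.224 and 0.232. Lct and Muc2 were not called in either fit, with differences of -0.85 ± 1.08 and -1.54 ± 1.01 with all arrays (limma adjusted p = 0.984 and 0.933).

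For floxed Notch1 against floxed Notch2, 5 genes were higher (0.0328%) and 6 lower (0.0394%) by limma, and without the 5 arrays 14 were higher (0.0919%) and 4 lower (0.0262%). The Paneth gene Itln1 differed by 0.84 ± 0.59 with all arrays (limma adjusted p = 0.679) and by 1.14 ± 0.19 without the 5 (adjusted p = 0.00622), or 0.0547 without the liver-gene array too. For all Notch lines against pL2, 8 genes were higher (0.0525%) and 10 lower (0.0656%), and without the 5 arrays 4 were higher (0.0262%) and 8 lower (0.0525%). Lct was higher by 1.9 ± 1.17 and Muc2 by 2.32 ± 1.09, neither past the threshold (limma adjusted p = 0.519 and 0.385), and without the 5 arrays Lct differed by 0.29 ± 0.36 and Muc2 by 0.89 ± 0.48. Pdx1 fell by 1.24 ± 0.22 (adjusted p = 0.0153), and without the 5 arrays by 1.22 ± 0.23 (adjusted p = 0.0223). That call was lost with the compared groups alone (limma adjusted p = 0.19), without pL2_MRI_chow replicate 2 (0.473) and without pL2_MRI_chow replicate 3 (0.204). Of 9 endothelial genes 4 were called higher (Sox18, Cdh5, Podxl and Eng, by 1.03 to 1.13, limma adjusted p = 0.0244 to 0.0461). Of 6 mesothelial genes Upk1b and Msln were called lower, by 1.97 ± 0.38 and 1.35 ± 0.29 (limma adjusted p = 0.0244 and 0.0383). Without the 5 arrays Sox18, Upk1b and Msln stayed called (limma adjusted p = 0.036, 0.0219 and 0.036). With the compared groups alone none of these was called (limma adjusted p = 0.0661 to 0.42).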

How the data were processed

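RNA of whole SCJ/cardia tissue was hybridised to 48 Affymetrix arrays in 16 groups of 3. The deposited values are log2 signals made by the authors with RMA in Affymetrix Expression Console, per the submitters' processing notes; versions are not given in the sources used here. Of 34390 annotated probe sets, 23521 had 1 gene symbol, 1814 several and 9055 none. The brightest single-symbol probe set stood for each of 22180 symbols, and the 15242 symbols above the array median on at least 3 arrays were tested. No intensities were renormalised.

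The 18 Notch-line arrays were split at a 19-gene mean of 8, and gene signals across that split were described without a test. Labelled comparisons used limma 3.58.1 in R 4.3.3 with 1 mean per group over all 48 arrays and Benjamini-Hochberg adjustment over 15242 genes, called below 0.05. Labels were compared with Fisher's exact or exact permutation tests (scipy 1.17.1, numpy 2.4.6, pandas 2.3.3). On simulated data with 200 genes changed by 1 (log2), 88% were recovered for Dclk against Lgr5 lines with 8 false calls among 15042, and 82.5% for activated against floxed Notch2 with 13. The simulated noise was independent, with the same spread on every array for a gene and no outlying arrays. The real lines hold outlying arrays, so these rates do not carry over to them. No 2 arrays were identical, and the number of arrays limits the precision.

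The members, lists and tests were chosen with earlier results of these data known. Named genes are the 19, at most 6 of each list with the largest difference, the regional genes, the 15 largest increases and 10 largest decreases among genes that did not overlap, called list members (at most 8 per comparison), and Il1b, Notch1, Notch2, Lgr5 and Dclk1. Other genes were named after their values were seen, to show where groups overlapped. Some list genes were not analysed here. Promoters are from RefSeq, GRCm38.p6. Other thresholds, filters, scalings, models and sets of arrays were tried.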

Additional observations from a re-analysis of the deposited data

Results flagged for a closer look

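Within the 5 high arrays, 4 list means stood apart from the other 4 arrays by Dixon's criterion, out of 36 lists examined, and chance flags about 1 in 20 groups. The tuft-cell list had 5.18 on pL2_Lgr5_Notch2fl replicate 2, against 5.82 to 5.95 on the other high arrays. The gastric pit list had 10.34 on pL2_Lgr5_Notch2IC replicate 3, against 11.47 to 11.83. The parietal list had 7.61 on the same array, against 8.84 to 8.99. The list of FXR and bile acid genes had 5.58 on pL2_Dclk_Notch2fl replicate 1, against 4.63 to 4.86, and Fabp6 (6.24), Slc10a2 (5.04) and Abcb11 (5.23) were each highest there among the 5.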

How the results depend on the processing

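A threshold of 9 kept 3 arrays. Set against all other 43 arrays, 116 genes were higher on every high array and 0 lower, and without the array just below the threshold 11 were lower. Leaving out each high array in turn gave 197 to 257 genes higher and 10 to 41 lower (21 without either Dclk array), since fewer arrays must then lie apart. Counts called by limma moved widely. For Notch lines against pL2 (18), they were 33 with cyclic loess, 5080 with array weights, which did not converge, 31 with the 19-gene mean as a covariate, 0 with the compared groups alone (1339 at an unadjusted p below 0.05), 30 without the liver-gene array and 60 without arrays above 7. For Dclk against Lgr5 lines (144), they were 64 without the 5 arrays, 93 with no filter, 57 with loess, 959 with weights, 248 with the covariate, 0 with the groups alone (1601 unadjusted), 670 without arrays above 7 and 50 without the 5 and the liver-gene array. For activated against floxed Notch2 (12), they were 84 without the 5, 43 with weights, 1 with the groups alone, 5 without arrays above 7 and 105 without the 5 and the liver-gene array. For floxed Notch1 against floxed Notch2 (11), they were 18 without the 5, 61 with weights, 4 with the groups alone and 915 without arrays above 7, which leaves the liver-gene array as the sole pL2_Lgr5_Notch1fl array. Leaving out 1 array gave 0 (without pL2_MRI_chow replicate 2, 784 unadjusted) to 217 (without pL2_MRI_chow replicate 1) for Notch lines against pL2, 28 (without pL2_Lgr5_Notch2fl replicate 2) to 430 (without pL2_Dclk_Notch2IC replicate 3) for Dclk against Lgr5 (of the high arrays, also 244 without pL2_Lgr5_Notch1fl replicate 3, 369 without pL2_Lgr5_Notch2IC replicate 3, 69 without pL2_Dclk_Notch1fl replicate 2 and 43 without pL2_Dclk_Notch2fl replicate 1), 6 (without pL2_Lgr5_Notch2IC replicate 2) to 71 (without replicate 3) for activated against floxed Notch2, and 6 (without pL2_Dclk_Notch1fl replicate 1) to 47 (without pL2_Lgr5_Notch1fl replicate 3) for the floxed alleles. The cause was not tested. Settings that leave out the liver-gene array, the array just below the threshold or arrays above 7 were chosen after seeing the data. No named gene changed sign among called values. No paired analysis was possible because the replicate numbers were given in accession order and the labels carry none.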

Other observations

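Smooth muscle genes were 0.63 higher on the high arrays by list mean, with 8.43, 8.96, 9.16, 9.18 and 7.81 on them, against 6.65 to 9.56 on the other 13. The neutrophil and IL-1 list had 6.69, 7.51, 7.0, 7.03 and 6.77 on the high arrays, against 6.97 to 8.47, and Il1b had 5.76 to 7.11, against 5.83 to 7.95. Tuft-cell genes had list means of 5.82, 5.18, 5.84, 5.82 and 5.95 on the high arrays, against 4.89 to 5.60. The tuft-cell ion channel Trpm5 had 5.84 to 6.98 on the high arrays, against 4.90 to 6.23. HOX genes of the trunk and hindgut had list means of 3.98 to 4.55 on the high arrays, against 3.90 to 4.48.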
